A study of Mus musculus with 36 samples.

Results

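Embryonic stem (ES) cells were set against wild mouse embryonic fibroblasts (MEFs) on 4 of the 36 arrays of a study of Zscan4 in the making of induced pluripotent stem (iPS) cells. The samples were chosen by their labels: 2 arrays of v6.5 ES cells and 2 arrays of the wild fibroblasts labelled MEF3 Tmx-, compared over all 42006 probes that were not controls. The v6.5 ES cells, of hybrid C57Bl/6 x 129 background, carried no labelled transgene and were grown on gelatin in ES medium with leukaemia inhibitory factor (LIF), without feeder cells being named. The wild MEFs, labelled as F1 hybrids from V6.5, carried no transgene, received no tamoxifen (Tmx-) and were grown on gelatin in MEF medium. Cell type, line and medium therefore cannot be told apart in this comparison.

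Other untreated groups of 2 arrays each were used to see how far the differences recurred. The iPS cells, also of hybrid C57Bl/6 x 129 background, were 1 clone with the KOS-ZERT2 transgenes in ES medium with LIF. The MEF2 ZERT2 Tmx- fibroblasts, F1 hybrids from V6.5 like the wild MEFs, carried Zscan4ERT2, also received no tamoxifen and were grown in MEF medium. The secondary MEFs, of the background of the iPS cells and also from 1 clone with the KOS-ZERT2 transgenes, received neither doxycycline nor tamoxifen and were sampled on days 1, 3 and 6; those of day 3 were in ES medium with LIF. The remaining groups were wild and Zscan4ERT2 MEFs with tamoxifen, and secondary MEFs with doxycycline, tamoxifen or both. They entered the statistical fit, the probe filter and the values given over all 36 arrays. On every array the Cy3 channel held the sample and the Cy5 channel the same common reference, which combined RNA of several cultured mouse lines, embryo fibroblasts among them, with RNA of ES cells.

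ES cells are pluripotent cells derived from the early embryo that LIF keeps in self-renewal through a network of transcription factors such as Oct4, Sox2 and Nanog. Embryonic fibroblasts are mesenchymal cells that spread on the dish and make collagens and other extracellular matrix. Reprogramming to iPS cells takes fibroblasts from the second state towards the first. No gene name was paired with a probe in the sources used here, so probes are given by identifier, and neither cell type could be checked against its marker genes.

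The ES and iPS arrays lay on 1 slide, the wild MEF arrays on another slide scanned on another day, and the other groups on further slides. Slide and group cannot be told apart for ES cells against wild MEFs. The arrays of untreated secondary MEFs of days 3 and 6 shared their scan day with those of ES cells, and those of day 1 did not. Nothing in the labels says whether the arrays of a group were separate cultures. The p-values then measure only the spread between arrays of the same group, pooled over all groups, which may be technical. Every group lay on 1 slide, so this spread holds no difference between slides. With 2 arrays per group the precision is limited.

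A probe was called on when Feature Extraction, the scanner's software, marked its sample signal as well above background. ES-on probes were on in both ES arrays and in neither wild MEF array, MEF-on probes the reverse, and graded probes were on in all 4 arrays. The 8 probes below had the largest difference in each direction among ES-on, MEF-on and graded probes, and are the probes whose values are followed through the text. Each is the 60-base sequence on the array, as the scanner files give it, and capitals mark ATTAAA, a variant of the polyadenylation signal found near the 3′ end of many transcripts; the commoner form AATAAA is in none of the 8.

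The 2 ES-on probes were these.
Z00063643-1: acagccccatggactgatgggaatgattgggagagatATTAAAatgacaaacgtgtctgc
Z00057176-1: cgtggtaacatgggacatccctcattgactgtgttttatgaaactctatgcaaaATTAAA

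The 2 graded probes higher in ES cells were these.
Z00034687-1: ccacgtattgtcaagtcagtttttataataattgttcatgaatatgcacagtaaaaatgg
Z00072411-1: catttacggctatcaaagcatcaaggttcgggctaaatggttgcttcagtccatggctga

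The 2 MEF-on probes were these.
Z00022892-1: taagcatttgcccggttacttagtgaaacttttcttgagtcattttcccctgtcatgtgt
Z00023592-1: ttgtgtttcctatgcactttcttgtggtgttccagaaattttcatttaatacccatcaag

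The 2 graded probes lower in ES cells were these.
Z00030484-1: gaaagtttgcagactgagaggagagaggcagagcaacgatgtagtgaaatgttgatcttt
Z00075103-1: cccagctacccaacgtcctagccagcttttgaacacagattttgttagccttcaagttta

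ES cells and wild MEFs differed at most probes, but mostly by little. Of 33099 probes tested, 11041 were higher in ES cells (33.4%) and 13231 lower (40%), so 73.3% were called at an adjusted p under 0.05 in limma. The log2 difference, ES cells minus wild MEFs, had a median of -0.04 and was under 0.5 in size at 50.3% of the tested probes. It was at least 1, a 2-fold difference, at 29.6% of them.

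The tails were long and unequal. The lowest difference was -9.97 and the highest 8.45, the 1st and 99th percentiles were -4.69 and 3.48, and the 5th and 95th were -2.55 and 1.72. Called probes at least 2-fold higher in ES cells numbered 3981, against 5802 lower. At least 4-fold there were 1201 higher (3.63% of those tested) and 2507 lower (7.57%), at least 16-fold 222 and 565, and at least 64-fold 35 and 102. Large differences were thus more often losses than gains in ES cells relative to wild MEFs.

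The excess of lower over higher probes was smaller on other scales. With Feature Extraction's own ratio there were 3051 probes at least 4-fold higher and 3718 lower, in the deposited series matrix 1908 and 2475, and with the sample channel alone 1849 and 2264. Among all calls the direction of the excess turned, with 45.5% higher in ES cells in the ratios used here, 53.7% by Feature Extraction's ratio, 52.6% in the series matrix and 55.3% in the sample channel alone. Feature Extraction's ratio moved the median difference over all tested probes to 0.10.

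Replicates differed far less than the groups. The difference between the 2 ES arrays had an SD of 0.11 over the tested probes and that between the 2 wild MEF arrays an SD of 0.14, against 1.35 for the difference between the groups. Between the ES arrays 13 probes differed by at least 1 on the log2 scale, and between the wild MEF arrays 29, against 9789 between the groups. For 90% of probes the ES replicates lay within -0.17 to 0.16 of each other and the wild MEF replicates within -0.22 to 0.22.

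**Figure D1:**
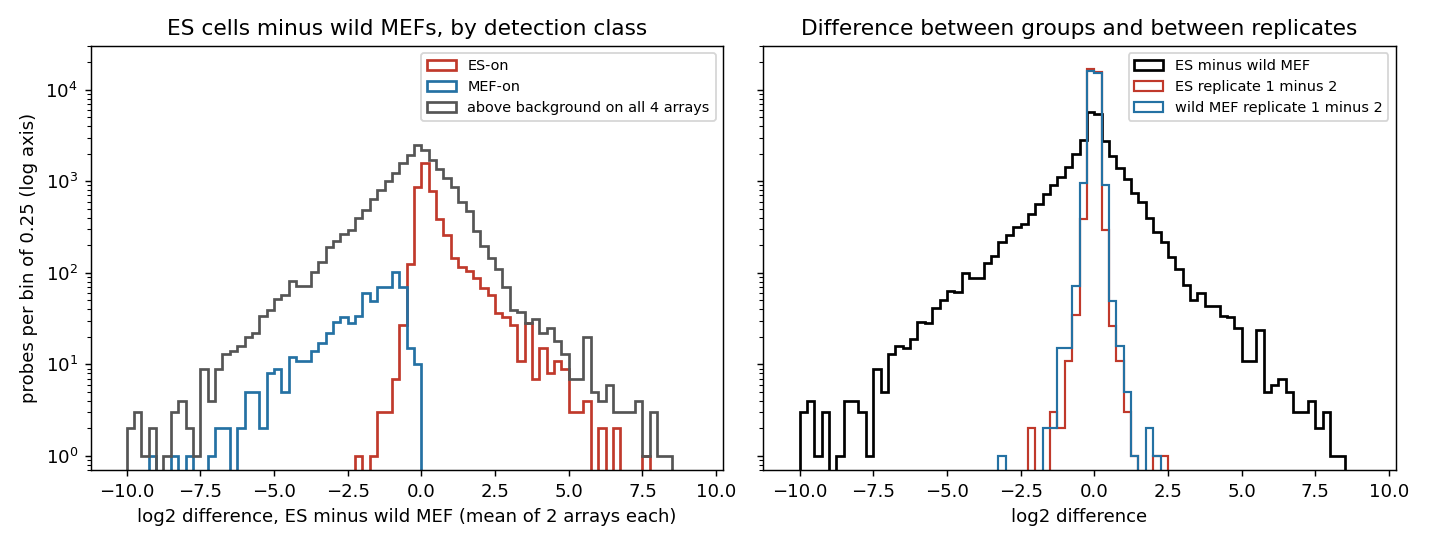
Number of probes (log axis) by log2 difference in bins of 0.25. Left, ES cells minus wild MEFs for ES-on, MEF-on and graded probes; right, the same difference over all 33099 tested probes (black) beside the difference between the 2 replicates of each group, which has an SD of 0.11 in ES cells and 0.14 in wild MEFs, against 1.35 between the groups.

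On/off probes were a small share of the array and ran opposite to the large differences. There were 4835 ES-on probes (11.5% of 42006) and 703 MEF-on probes (1.67%), against 21691 graded probes (51.6%), 10400 that were on in none of the 4 arrays (24.8%) and 4377 that were on in only some arrays of a group (10.4%). The flag thus gave more probes on the ES side, whereas differences of at least 4-fold were more numerous on the MEF side. Without wild MEF replicate 1 the MEF-on probes numbered 1106, with the other array standing for the group.

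Most ES-on probes differed little. Their median log2 difference was 0.21, with quartiles of 0.02 and 0.61, and 69.7% were under 0.5 in size. Limma called 2562 of them higher in ES cells and 278 lower, a share of 58.7% against the 73.3% of all tested probes. At least 2-fold higher were 778, at least 4-fold 326 and at least 16-fold 58. On the ES arrays their median brightness was 82.4 units, and 3541 of them (73.2%) were under 2 times the dimmest signal still marked as on in both ES arrays. That dimmest signal was 56.4 and 60.1 on the ES arrays, against 88.0 and 78.4 on the wild MEF arrays. A probe of equal brightness could thus be on in one group and not in the other.

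In 8 ES-on probes the called ratio was at least 2-fold lower in ES cells, opposite to the flag. Z00054278-1, picked out after its values were seen, was the 1 of these that passed 4-fold, at -2.02. Its brightness was 114 and 108 on the ES arrays, against 81.6 and 73.1 on the wild MEF arrays, so signal and ratio to the reference went opposite ways. With the sample channel alone its difference was 0.75, the other way.

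MEF-on probes were fewer and differed more. All 703 had a negative difference, with a median of -1.55 and quartiles of -2.61 and -0.94, and limma called 695 of them lower in ES cells (98.9%, against 73.3% of all tested probes in either direction). The flags that define the class come from the same arrays as the test, so this direction and share follow in part from the rule. At least 2-fold lower were 505, at least 4-fold 255, at least 16-fold 67 and at least 64-fold 10. Their median brightness on the wild MEF arrays was 145 units, and 378 (53.8%) were under 2 times the dimmest signal marked as on.

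A probe that is off has only an upper limit to its level, so its fold is a bound: the mean of the group where it was on against the mean, per array, of the higher of the dimmest signal marked as on and the probe's own signal, all on normalised values of the sample channel. These values are on another scale than the ratio to the reference, so the bound holds for the difference in the sample channel and is no limit to the fitted difference in ratio, which can be smaller. On that scale, 818 ES-on probes (16.9%) reached 2-fold in ES cells over wild MEFs, 349 (7.22%) at least 4-fold and 68 at least 16-fold, with a median bound of 1.16-fold. The sample channel differences themselves reached those folds at 905, 364 and 69 ES-on probes. Of the MEF-on probes, 509 (72.4%) were at least 2-fold higher in wild MEFs, 256 (36.4%) at least 4-fold and 80 at least 16-fold, with a median of 2.93-fold, against 533, 266 and 82 for the sample channel differences themselves.

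The reference channel held the same RNA on every array and so shows how detection itself differed between them. It was well above background at 76.3% and 72.7% of probes on the ES arrays, against 57.1% and 65.4% on the wild MEF arrays. In the sample channel the shares were 71.8% and 67.6% in ES cells and 54.9% and 58.9% in wild MEFs. The median local background was 38.5 and 37.0 units on the ES arrays and 46.5 and 45.0 on the wild MEF arrays.

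By the same on/off rule, the reference was on in both ES arrays and off in both wild MEF arrays at 3307 probes, and the reverse at 18. That imbalance, in RNA that did not differ, had the direction of the 4835 against 703 in the samples. Among the ES-on probes the reference was detected on both ES arrays at 4327 (89.5%) and on both wild MEF arrays at 1167 (24.1%). Where the reference was detected on all 4 arrays, 1166 ES-on and 299 MEF-on probes were left. The share of the on/off counts that detection contributed was not tested.

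**Figure D2:**
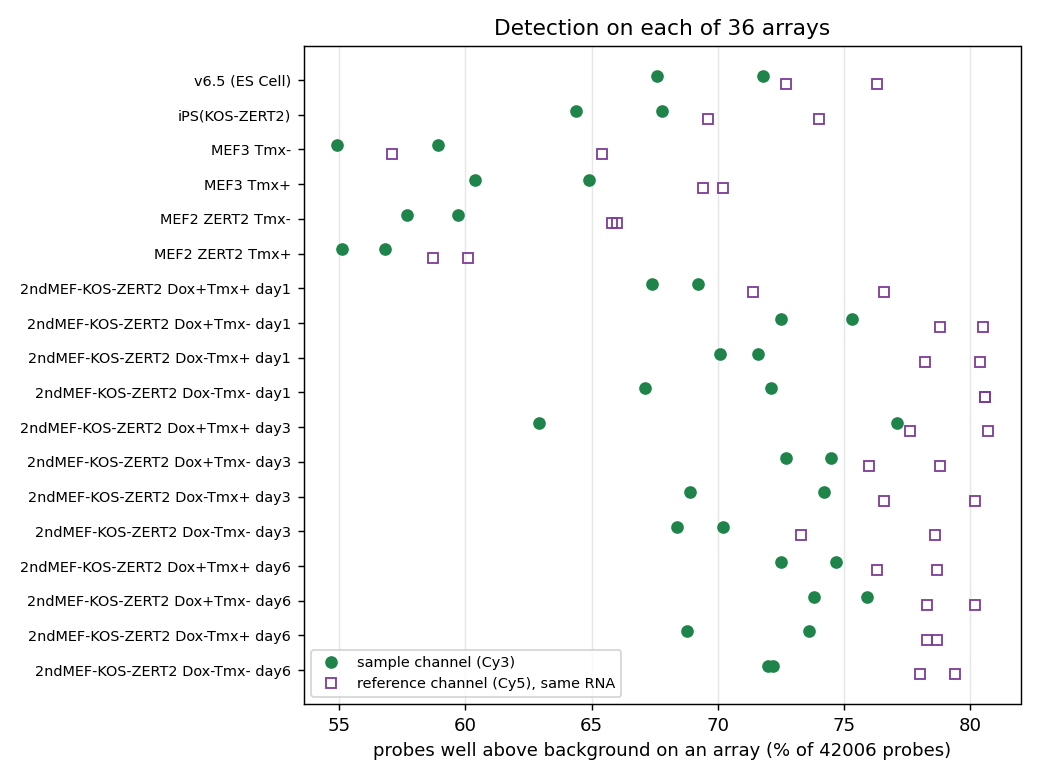
Share of 42006 probes well above background on each of the 36 arrays, in the sample channel (filled circles) and in the common reference (open squares), with 2 arrays per group. The reference, the same RNA throughout, was detected at 72.7% and 76.3% on the ES arrays, against 57.1% and 65.4% on the untreated wild MEF arrays.

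Against secondary MEFs of day 3, whose arrays detected the reference at 73.3% and 78.6% of probes, the 2 on/off classes were about equal in number. With them in place of wild MEFs, 1431 probes were on in ES cells only and 1313 in the fibroblasts only, and the reference gave 28 and 130 by the same rule. The median log2 differences of these classes were 0.58 and -0.61, and 33.1% and 33.4% of them were at least 2-fold. Against day 1 the sample counts were 1244 and 1125 (reference 8 and 1287), and against day 6 they were 1139 and 1764 (reference 7 and 696). The comparisons share the ES arrays and the secondary MEFs are a different, transgenic line, with those of day 3 in ES medium.

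The class itself carried over unequally to other fibroblasts. Of the MEF-on probes, 94.6% were on in neither iPS array, while the share on in both arrays was 73%, 88.2% and 96.3% in secondary MEFs of days 1, 3 and 6 and 94.2% in MEF2 ZERT2 Tmx-. ES-on probes were on in both iPS arrays at 77.4%, but also at 62.3%, 63.2% and 71.4% in secondary MEFs of days 1, 3 and 6. In MEF2 ZERT2 Tmx- they were on at 4.53%.

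**Figure D3:**
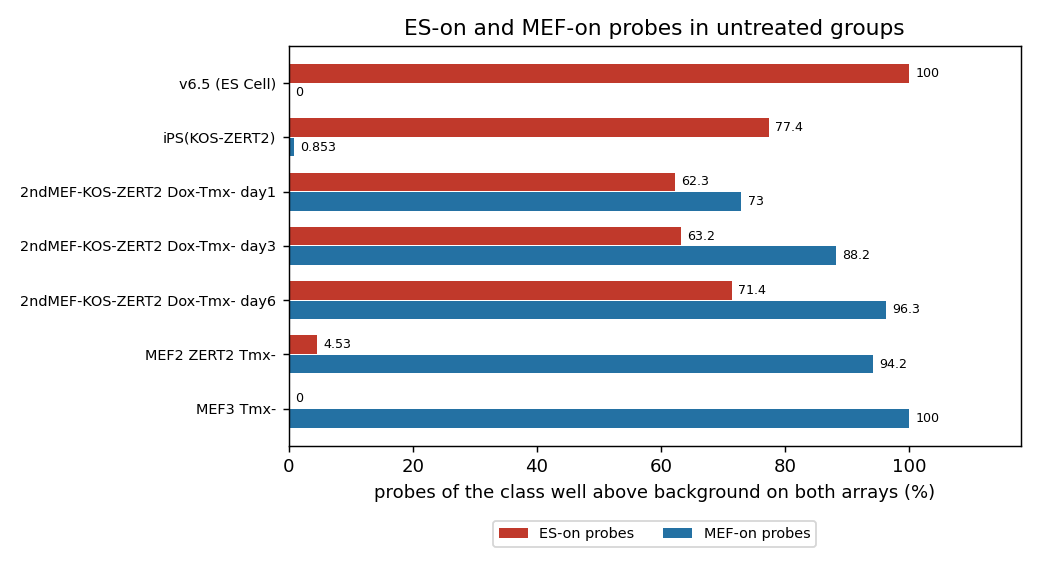
Share of the 4835 ES-on (red) and 703 MEF-on (blue) probes well above background on both arrays of each untreated group; ES cells and wild MEFs are at 100% or 0 by the rule. ES-on probes were on at 77.4% in iPS cells, against 63.2% in secondary MEFs of day 3 and 4.53% in MEF2 ZERT2 Tmx-, while MEF-on probes were on at 0.853% in iPS cells and at 73% or more in each fibroblast group.

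Asking for the same state in every untreated array left 638 probes on in all ES and iPS arrays and off in all 10 untreated fibroblast arrays, and 467 with the reverse pattern. Limma called 603 of the 638 and all 467 of the reverse set, against 73.3% of all tested probes. The median difference was 0.81 over the 638 and -1.88 over the 467. The ES and wild MEF arrays helped to define both sets and also gave the calls, so these counts follow in part from the choice. Of the 778 ES-on probes called at least 2-fold higher, 777 were on in both iPS arrays, 259 (33.3%) were off in all 10 fibroblast arrays and 324 (41.6%) were on in both day 3 secondary MEF arrays. Of the 505 MEF-on probes called at least 2-fold lower, 473 (93.7%) were on in neither iPS array and 399 (79%) were on in all 10 fibroblast arrays.

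The large differences were mostly graded, as were the tested probes: of 33099, 21691 were graded, 4835 ES-on and 703 MEF-on. Of the 1201 probes at least 4-fold higher in ES cells, 800 (66.6%) were graded and 326 (27.1%) ES-on. Of the 2507 at least 4-fold lower, 2139 (85.3%) were graded and 255 (10.2%) MEF-on. The graded share was thus near that of all tested probes among the higher and above it among the lower. ES-on probes among the higher and MEF-on probes among the lower had larger shares than among all tested probes. The flags and the differences come from the same arrays, so these shares follow in part from the rule. At 64-fold and more, 29 of 35 higher and 85 of 102 lower probes were on in all 4 arrays. Graded probes as a whole had a median size of difference of 0.71. Of them 84.2% were called, 7691 higher and 10582 lower, against 73.3% of all tested probes.

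Being on in all 4 arrays did not mean being bright in all 4. Of the 29 graded probes at least 64-fold higher in ES cells, 13 were under 2 times the dimmest signal marked as on in both wild MEF arrays. Of the 85 at least 64-fold lower, 35 were under that limit in both ES arrays. Among graded probes at least 4-fold higher it was 299 of 800, and among those at least 4-fold lower 515 of 2139.

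The ratios to the reference show where the unequal tails lay. Probes at least 4-fold higher in ES cells had a median log2 ratio of 1.12 in ES cells, with a 95th percentile of 2.13 and a maximum of 3.92, against a median of -1.71 in wild MEFs. Probes at least 4-fold lower had a median ratio of -1.85 in ES cells, against 1.22 in wild MEFs, where the 95th percentile was 3.52 and the maximum 7.11. The reference holds ES cell RNA and RNA of embryo fibroblasts in unequal amounts, and its part in this was not tested.

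The largest ES-on difference was that of Z00063643-1. Its log2 ratios were 1.50 and 1.56 on the ES arrays, against -5.97 and -6.12 on the wild MEF arrays, so the groups lay far apart. Its brightness was 32600 and 31220 in ES cells, against 83.7 and 73.5 in wild MEFs, just under the dimmest signals marked as on there. In the sample channel ES cells were at least 258-fold higher, with normalised log2 means of 15.09 in ES cells and 7.08 in wild MEFs. The fitted difference in ratio, a smaller 191-fold on its own scale, was 7.58 (SE 0.07, limma adjusted p = 2.78e-29). In iPS cells it had 1.70 on both arrays, as in ES cells. In secondary MEFs of day 3 the ratio was -6.89 and -6.85, lower than in wild MEFs, and yet the probe was marked as on in both arrays.

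Z00057176-1 was the second ES-on probe, with ratios of 1.18 on both ES arrays, against -5.45 and -5.55 on the wild MEF arrays. In the sample channel it was at least 109.9-fold higher in ES cells, and the fitted difference in ratio was 6.68 (103-fold, SE 0.09, limma adjusted p = 1.64e-26). In MEF2 ZERT2 Tmx- it had -5.68 and -5.56 and was on in 1 of the 2 arrays. No untreated fibroblast array came near the ES and iPS arrays at either probe.

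The graded probes higher in ES cells were dim but on in wild MEFs. Z00034687-1 had ratios of 1.79 and 1.71 in ES cells, against -6.62 and -6.77 in wild MEFs, a difference of 8.45 (349-fold, SE 0.10, limma adjusted p = 1.81e-27). Its brightness in wild MEFs was 96.4 and 93.4, just above the dimmest signals marked as on there. Z00072411-1 had 1.56 and 1.44 in ES cells, against -6.48 and -6.58 in wild MEFs (261-fold), and its brightness in wild MEFs was 150.4 and 152.7.

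Among MEF-on probes Z00022892-1 differed most. Its ratios were -2.44 and -2.43 on the ES arrays, against 6.61 and 6.76 on the wild MEF arrays, and its brightness was 56.3 on both ES arrays, against 21230 and 26960 in wild MEFs. In the sample channel ES cells were at least 604-fold lower, and the fitted difference in ratio was -9.12 (556-fold, SE 0.10, limma adjusted p = 3.43e-28). iPS cells, at -2.73 and -2.48, lay with ES cells. Its level was not fixed among fibroblasts: untreated secondary MEFs had mean ratios of -0.85, 2.36 and 4.66 on days 1, 3 and 6, and it was 6.41 in MEF2 ZERT2 Tmx-.

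Z00023592-1 had ratios of -5.31 and -5.27 in ES cells, against 3.08 and 3.22 in wild MEFs, and was at least 312-fold lower in ES cells in the sample channel, with a fitted difference in ratio of -8.43 (346-fold, limma adjusted p = 1.35e-26). In secondary MEFs it had means of 0.45, 0.98 and 3.21 on days 1, 3 and 6. Its day 6 mean thus lay between the 2 wild MEF arrays.

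The largest difference of all was graded. Z00030484-1 had ratios of -2.88 and -2.82 in ES cells, against 7.09 and 7.14 in wild MEFs, a difference of -9.97 (999.9-fold, SE 0.09, limma adjusted p = 5.29e-30). In ES cells its brightness was still 479 and 483, against 63620 and 106000 in wild MEFs, and no spot was saturated. iPS cells had -2.38 and -2.44, and secondary MEFs had means of 1.68, 4.71 and 6.12 on days 1, 3 and 6.

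Z00075103-1 had ratios of -7.30 and -7.29 in ES cells, against 2.59 and 2.72 in wild MEFs (-9.95, SE 0.09, limma adjusted p = 1.02e-29). iPS cells had -5.39 and -5.50. The ES minus iPS difference was -1.85 (SE 0.09, limma adjusted p = 4.11e-13), so iPS cells were well below every fibroblast group but not as low as ES cells.

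**Figure D4:**
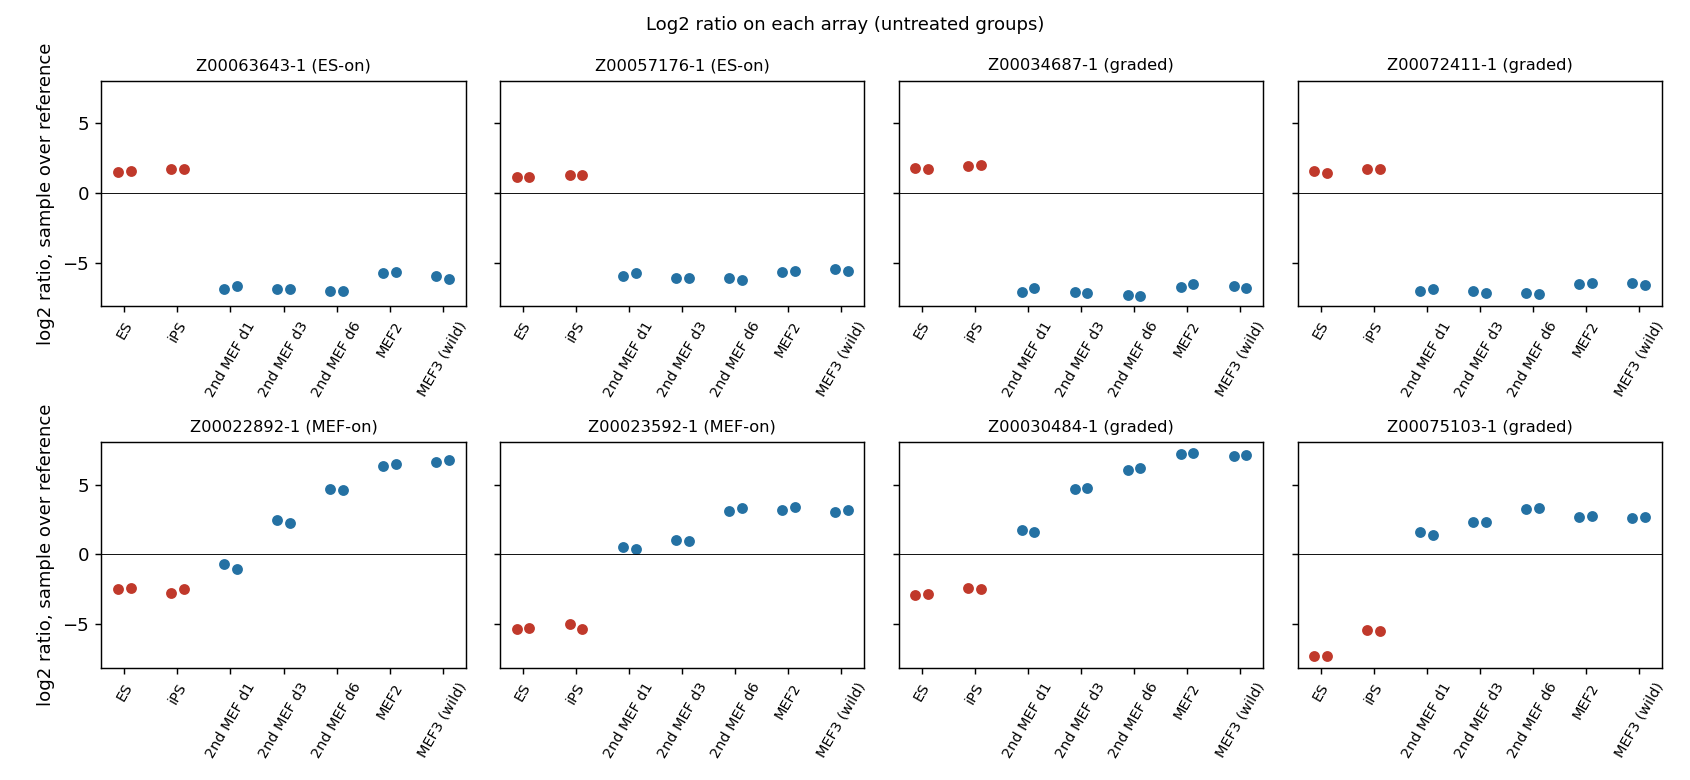
Log2 ratio of sample over reference on each array for the 8 named probes in 7 untreated groups (ES and iPS cells red, fibroblasts blue, 1 point per array). In the upper row, higher in ES cells, all fibroblast groups lie below ES and iPS cells; in the lower row secondary MEFs vary with the day, with means of -0.85, 2.36 and 4.66 on days 1, 3 and 6 at Z00022892-1.

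The differences recurred in a comparison that shared no array with this one. iPS cells against MEF2 ZERT2 Tmx- gave 74.3% of tested probes called, 11265 higher and 13313 lower. Of the 1201 probes at least 4-fold higher in ES cells against wild MEFs, 1197 were higher in iPS cells too, with a median log2 difference of 2.69 in iPS cells and 2.67 in ES cells. Of the 2507 at least 4-fold lower, 2503 were lower in iPS cells, with medians of -2.95 and -2.90. Over all calls, 97.7% of the higher and 97.9% of the lower probes had the same direction, and 90.4% and 91.5% were called that way. Both comparisons draw on the spread pooled over all groups, and ES and iPS cells lay on 1 slide.

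The recurrence differed by class. Of the called ES-on probes, 83.9% were called the same way in iPS cells against MEF2 ZERT2 Tmx-, against 93.5% of the graded and 99.3% of the MEF-on probes. The classes also differed in size of difference, with medians of 0.24, 0.71 and 1.55 over all their probes in the same order. Among calls of at least 2-fold in any class, 99.5% of the higher and 99.7% of the lower probes were called the same way. The part of size in the gap between classes was not tested. Against day 3 secondary MEFs, with the ES arrays in common, 72.1% of tested probes were called, and the probes at least 4-fold higher or lower than in wild MEFs had medians of 2.86 and -2.54. Both ES arrays lay outside the range of all 10 untreated fibroblast arrays at 1168 of the 1201 probes (97.3%) and at 2405 of the 2507 (95.9%), against 59.6% of all tested probes. The 1201 and 2507 probes were chosen on these ES arrays and on the wild MEF arrays among the 10. Their higher shares thus follow in part from that choice and are no separate evidence of recurrence.

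**Figure D5:**
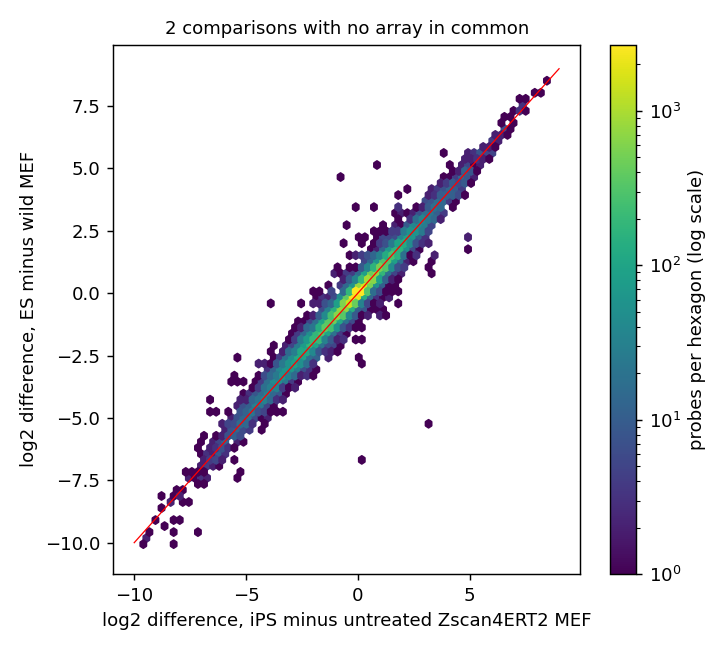
ES cells minus wild MEFs (vertical) against iPS cells minus MEF2 ZERT2 Tmx- (horizontal), as log2 differences over 33099 tested probes, shaded by the number of probes on a log scale, with the line of equality in red. Points gather along the line over the whole range. Among the few far from it are probes that separate the fibroblast lines, such as Z00064853-1, or ES from iPS cells, such as Z00075103-1. Not all of the others were examined.

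The size of the difference itself differed between these 2 comparisons at 3508 probes (10.6% of those tested), 1935 higher and 1573 lower, by limma's interaction contrast. With local backgrounds as in the files these counts were 1030 and 727, and without ES replicate 2 the lower probes numbered 1018. The gap was at least 2-fold at 213 of the 3508. Of the 3708 probes at least 4-fold different between ES cells and wild MEFs, 902 were among them.

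In 8 probes at least 4-fold different the sign was the opposite in iPS cells against MEF2 ZERT2 Tmx-; they were picked out after their values were seen, and 3 of the values in iPS cells missed the threshold. In 4 of them, all ES-on, the wild MEF line lay below every other group. They were not well above background in wild MEFs, so the ratios there are upper limits. Z00064853-1 had ratios of -0.33 and -0.43 in ES cells, against -5.07 and -5.13 in wild MEFs, but 1.29 and 1.39 in MEF2 ZERT2 Tmx-. Over the 4 arrays of wild MEFs with and without tamoxifen it lay between -5.13 and -4.84. Over the other 32 arrays, which include cultures with doxycycline, tamoxifen or both, it lay between -0.43 and 1.82.

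The same split held at the other 3. Z00063386-1 lay between -3.33 and -3.14 on the 4 wild MEF arrays and between 0.05 and 1.29 on the rest. Z00031814-1 lay between -2.76 and -2.48, against -0.55 to 1.62. Z00070082-1 lay between -2.77 and -2.65, against -0.65 to 1.04. In the sample channel ES cells were at least 29.1-fold higher than wild MEFs at Z00064853-1, 12.1-fold at Z00063386-1, 4.58-fold at Z00031814-1 and 10.3-fold at Z00070082-1. At these 4 on/off probes the wild MEF line, with and without tamoxifen, was thus apart from all other lines, fibroblasts included.

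Z00016441-1 ran the other way. Its ratios were -5.47 and -5.30 in ES cells, against 1.21 and 1.37 in wild MEFs, but -5.16 and -5.22 in MEF2 ZERT2 Tmx-, where it was not well above background; it was so in 1 of the 2 ES arrays. Z00027416-1 had -4.89 and -4.80 in ES cells, against 0.36 and 0.46 in wild MEFs, with -0.52 and -0.58 in iPS cells and -3.64 and -3.89 in MEF2 ZERT2 Tmx-, not well above background in the last. Its brightness on the ES arrays, 59.6 and 62.6, was just above the dimmest signals marked as on there. At Z00035887-1 and Z00036982-1 the untreated Zscan4ERT2 MEFs lay with ES cells near or below 0, while wild MEFs were at 2.08 to 2.52. The 4 wild MEF arrays, with and without tamoxifen, lay above the other 32 at Z00027416-1 (0.36 to 0.57, highest other -0.52). The same held at Z00016441-1 (1.05 to 1.37, highest other 0.87) and Z00035887-1 (1.88 to 2.13, highest other 1.73). At Z00036982-1 the ranges overlapped (2.41 to 2.72, highest other 2.57).

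The classes differed somewhat in probe sequence. The median G+C content was 45% in ES-on and graded probes, 40% in MEF-on probes and 41.7% in probes off on all 4 arrays, against 43.3% in all 42006. A CpG was present in 58.4% of ES-on and 51.1% of MEF-on probes, against 54.9% of all. AATAAA or ATTAAA, searched on the strand printed, was in 8.5% of ES-on and 12.8% of MEF-on probes, against 9.9% of all.

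Among probes at least 16-fold higher in ES cells that share was 20.3%, and among those at least 16-fold lower 15%. The reverse complements, TTTATT or TTTAAT, were in 4.95% and 6.19% of the same probes, against 5.53% of all. A match is a description of the probe's letters, and G+C content and brightness move with the classes, so their part was not tested. The array also carried 35 pairs of probe names with 1 sequence; their differences between ES cells and wild MEFs were apart by a median of 0.08 and at most 0.35, and 31 pairs fell into 1 class.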

How the data were processed

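Scanner output of 36 Agilent arrays with 2 colours and a series matrix were deposited. Per the file headers, the authors used Feature Extraction 9.5.1.1 for spot quantification. The deposited intensity values (mean signal and median local background of both channels) are not normalized. The deposited log10 ratio is red over green after Feature Extraction's own corrections, per the file headers, and was turned in sign. The deposited series matrix, with medians of 2.37 to 2.45 per array for 25030 probes, was read as log10 sample brightness from its values. The sources used here do not give its normalization or centring. Detection flags are those of the deposited files.

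Local backgrounds marked as outliers were replaced by the array median, then normexp (offset 50) and loess within arrays were run in limma 3.58.1 (R 4.3.3), with control and non-uniform spots at weight 0. Ratios are sample over reference, with spots of 1 probe averaged. The test covered the 33099 probes well above background in both arrays of any group, leaving out 8907. A linear model (lmFit) with 1 mean per group over all 36 arrays (18 residual and 4.9 prior degrees of freedom) and eBayes gave two-sided p-values, Benjamini-Hochberg adjusted within each contrast, with calls under 0.05. The steps were tested on simulated data.

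The comparison, its classes and the rule for named probes were chosen with earlier results of these data known. The rule took the 2 on/off and 2 graded probes of largest difference in each direction among called probes; probes of opposite sign in the other comparison were added after their values were seen. Lists of genes could not be applied without gene names. The main fit did not pair arrays by the replicate numbers in the labels. Replicate differences of ES cells and wild MEFs correlated at -0.155 over tested probes, which cannot show whether arrays of equal number shared any handling. The alternatives tried were the background correction, Feature Extraction's ratio, the series matrix, the sample channel alone, the filter, the fit's arrays, a replicate block, other detection rules and each array left out.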

Additional observations from a re-analysis of the deposited data

Results flagged for a closer look

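At 9 named probes the difference between ES cells and wild MEFs was not the same as that between iPS cells and MEF2 ZERT2 Tmx-, by limma's test of the difference between the 2 differences. At Z00075103-1 it was -1.78 (SE 0.13, adjusted p = 3.64e-10), with the ES cells below the iPS cells and the fibroblast lines alike. At Z00064853-1 it was 5.56, at Z00063386-1 3.54, at Z00070082-1 3.19 and at Z00031814-1 2.70, each with wild MEFs below all other groups. Wild MEFs were not well above background at these 4, so the values are fitted differences against a group with only an upper limit and give no exact size; the sample channel bounds for ES cells over wild MEFs were 29.1-fold, 12.1-fold, 10.3-fold and 4.58-fold in the same order. At Z00027416-1 it was -8.47, at Z00016441-1 -6.94, at Z00035887-1 -2.96 and at Z00036982-1 -2.69, each with wild MEFs above MEF2 ZERT2 Tmx-, which was well above background at Z00035887-1 and not at the other 3. The SE was 1.28 at Z00016441-1, against 0.14 or less at the rest of the 9. It rests on the spread pooled over all groups, not on the 4 compared groups alone. Their replicate ratios at that probe were -5.47 and -5.30 in ES cells, 1.21 and 1.37 in wild MEFs, -4.86 and -5.01 in iPS cells, and -5.16 and -5.22 in MEF2 ZERT2 Tmx-. The highest adjusted p among the 9 was 0.000599, at Z00016441-1. All but Z00075103-1 were picked for an opposite sign in the 2 comparisons, so their p-values describe a choice made on these data.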

How the results depend on the processing

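Of 182 counts and percentiles recomputed under the alternatives, 157 stayed within 1.5 times the count or within the replicate spread. With local backgrounds as in the files, the difference between the 2 comparisons was called higher at 1030 and lower at 727 probes. Feature Extraction's ratio gave 3051 probes at least 4-fold higher in ES cells and 5th and 95th percentiles of -3.42 and 2.86, and no filter gave -2.23 and 1.53. The series matrix, with fewer probes, gave 7582 lower, 1908 at least 4-fold higher, percentiles of -3.64 and 2.93, 7656 lower in iPS cells and 7724 lower against day 3 secondary MEFs. The sample channel alone gave 1849 at least 4-fold higher, a 95th percentile of 2.10 and, for Z00054278-1, 0.75. The cause was not tested. The other 16 named probes kept direction and call under every alternative run.

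ES-on probes numbered 2562 with a call, 778 with a call of 2-fold, 780 above 4 times the local background (MEF-on 252), 1166 with the reference detected on all 4 arrays (MEF-on 299), and 1431 against day 3 secondary MEFs (1313 on in those alone). The 2-fold, reference and day 3 rules were chosen after seeing the data. With 1 array left out, ES-on probes numbered 4999 to 6335 and MEF-on probes 719 to 1106, the highest without wild MEF replicate 1; calls of the difference between comparisons numbered 1332 to 1653 higher and 1018 to 1441 lower, the fewest lower without ES replicate 2. With the replicate number as a block, 11047 probes were higher and 13223 lower in ES cells, and no call count moved by over 1.5 times; a crossed pairing, added later since the correlation was below 0, gave 11041 and 13225. Slide as a random block was not run, since every group lay on 1 slide and a slide effect could not be estimated beside the groups. Detection limits the on/off classes: an off probe has only an upper limit, set by each array's background.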
